A study of Mus musculus with 5 samples.

Results

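Foxc1, Foxf2 and Foxq1 are 3 forkhead transcription factor genes that lie side by side on mouse chromosome 13, and DNA methylation was followed at the CpG positions of these genes and of the 5 kb on either side of each. The measurement was enhanced reduced representation bisulphite sequencing, which reads DNA around MspI sites after bisulphite treatment: a methylated cytosine stays C and an unmethylated one appears as T. A position, meaning the cytosine of a CpG on 1 strand, was used on an allele when it had more than 20 calls in every library, and mC is the percentage of its calls that were methylated. On the castaneus allele 74 positions passed this minimum (15 at Foxc1, 15 at Foxf2 and 44 at Foxq1) of 132596 in the whole series. On the domesticus allele 66 passed (12 at Foxc1, 21 at Foxf2 and 33 at Foxq1) of 127760. The 3 genes were picked because methylation had been seen to differ here between the groups of these same libraries, so the depletion values below are a description and carry no test.

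The cells were fibroblasts grown from E13.5 embryos of 129/C57 dams and CAST sires, so the domesticus allele is maternal and the castaneus allele paternal. All 5 libraries were Xist-deltaA/+, a deletion in the Xist gene on 1 X chromosome. The 3 Female control libraries were Setdb1+/+ and carried a nonsilencing hairpin, and the 2 Setdb1 depleted libraries were Setdb1+/gt, which means 1 gene-trap copy of Setdb1, and carried the shSetdb1 hairpin. Genotype and hairpin changed together and cannot be told apart, the hairpins were delivered by retrovirus and puromycin selection, and the level of Setdb1 and the identity of the cells cannot be read from methylation calls. Each library and allele held 9440874 to 10558931 CpG calls.

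Forkhead factors bind DNA through a winged-helix domain and set the identity of mesenchyme and epithelium in the embryo. Foxc1 acts in the mesenchyme of the eye, skull and vessels, Foxf2 in the mesenchyme of the palate and gut, and Foxq1 in hair follicle and stomach epithelium. The start sites of such developmental genes usually lie in CpG islands, stretches rich in CpG that stay unmethylated in most cells. Setdb1 is a histone methyltransferase that places methyl groups on lysine 9 of histone H3.

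On the GRCm38 build, Foxc1 (ENSMUSG00000050295.4) spans chr13:31806633-31812476, Foxf2 (ENSMUSG00000038402.2) chr13:31625816-31631403 and Foxq1 (ENSMUSG00000038415.10) chr13:31556134-31560976, all on the + strand. Foxc1 has an island of 2655 bp over its start and a separate island at chr13:31810998-31812000, which is 1003 bp long with 101 CpGs, a GC content of 68.2% and an observed to expected CpG ratio of 0.866. GENCODE places this second island in the 3' UTR of Foxc1, whereas the RefSeq gene ends at 31810635, 363 bp before the island begins. The island is called the Foxc1 island below, although by RefSeq it is intergenic. Foxf2 has an island of 1746 bp over its start and one of 715 bp in its intron, and Foxq1 has a single island of 2275 bp.

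Among covered positions, the difference between the groups was mainly at the Foxc1 island and, on castaneus, at a position just outside it. It was not seen across the covered parts of the cluster. Some single positions elsewhere also separated the groups, as given below. At the island's positions that passed the minimum, mean mC was higher in both depleted libraries than in any control on both alleles. These held 3 of its 101 CpGs on castaneus and 11 on domesticus, and shallower parts did not show the same difference. At their covered positions, the Foxc1 start island and the islands of Foxf2 and Foxq1 stayed within a few percent or overlapped between the groups. Coverage was partial here too. The Foxc1 start island (268 CpGs) had 10 castaneus positions and none on domesticus. The Foxf2 start island (162 CpGs) had 6 castaneus and 11 domesticus positions, and its intron island (63 CpGs) 3 on each allele. The Foxq1 island (252 CpGs) had 42 and 31. The name of a cluster that gains methylation therefore does not describe what was read at Foxf2 and Foxq1, and for Foxc1 it restates the observation by which the genes were picked.

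The sequences that carry this contrast are given from the GRCm38 reference on the + strand, with every CpG in capitals. The first line is the edge of the Foxc1 island (chr13:31811974-31812002) and the second the start of a run further inside it (chr13:31811606-31811632), both from runs where each depleted library was above each control on an allele that passed the minimum. The third is a run in the Foxc1 coding exon (chr13:31808103-31808186), the fourth a run in the Foxf2 intron (chr13:31629645-31629665) and the fifth a run in the Foxq1 coding exon (chr13:31559868-31559944), shown for contrast from regions with little methylation or whose means overlapped between the groups. The last CpG of the Foxf2 run, on the - strand, was nevertheless higher in both depleted libraries on castaneus, as given below.
Foxc1 island edge: cttgCGgccctgagaaCGcctaggcCGca
Foxc1 island, inner run: tggCGCGggCGgcctcacCGctCGctc
Foxc1 coding exon: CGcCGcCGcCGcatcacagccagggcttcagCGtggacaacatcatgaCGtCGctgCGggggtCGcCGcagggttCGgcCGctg
Foxf2 intron: caggCGtgCGtctggtgCGgg
Foxq1 coding exon: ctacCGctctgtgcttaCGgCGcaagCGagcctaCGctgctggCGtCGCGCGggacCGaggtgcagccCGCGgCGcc

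At the Foxc1 island on the castaneus allele, 4 positions passed the minimum, which are the 3 CpGs of the edge sequence, the last of them read on both strands. Their mean mC was 28.6%, 38.8% and 31.5% in control replicates 1 to 3 and 51.4% and 75.0% in depleted replicates 1 and 2, an order kept below. Controls averaged 33.0% ± 5.28 (SD, n = 3) and depleted libraries 63.2% ± 16.7 (SD, n = 2), which is 30.3 points higher. The lower depleted library lay above the highest control at the island and at each of its 4 positions. The size of the difference rested on depleted replicate 2, and without it the difference was 18.4 points.

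On the domesticus allele 11 positions of the same island passed, the 3 of the edge and 8 of the inner run. Mean mC was 19.4%, 24.0% and 23.4% in the controls and 45.7% and 33.4% after depletion. Controls averaged 22.3% ± 2.51 (SD, n = 3) and depleted libraries 39.6% ± 8.72 (SD, n = 2), which is 17.3 points higher. Here depleted replicate 1 was the higher of the pair, and without it the difference was 11.1 points. In 8 of the 11 positions every depleted library was above every control.

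The share of positions whose groups do not overlap is set beside what all autosomal positions show, because it is not small by itself. In the Foxc1 window 6 of 15 castaneus and 8 of 12 domesticus positions were higher in both depleted libraries, against 4.68% of all castaneus and 4.81% of all domesticus autosomal positions. Among autosomal positions with 10 to 40% mC in controls these shares were 9.94% and 9.18%. Of these 15 and 12 positions, 1 castaneus and no domesticus position was lower in both depleted libraries, against 4.37% and 4.52% of all positions. The mean over the covered positions of the island was higher in both on each allele, as were 7.29% of castaneus and 6.58% of domesticus islands, while 7.52% and 7.47% of islands were lower. These genes were picked on this contrast, and positions of a run share their reads, so nothing is read from the comparison.

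The 3 positions of the edge were read by the same reads and were covered on both alleles. Their mean on the castaneus allele was 34.1%, 39.0% and 33.5% in controls and 48.0% and 75.6% after depletion. On the domesticus allele it was 23.2%, 25.6% and 22.2% in controls and 39.8% and 42.9% after depletion. The castaneus difference was 26.3 points and the domesticus one 17.7. The 2 depleted libraries lay close together on domesticus and far apart on castaneus, so the SD after depletion was 2.20 points on the former and 19.5 on the latter.

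Of single positions, the largest change on the castaneus allele was at 31812000, the other strand of the last edge CpG. It held 12%, 38.5% and 25.5% mC in controls and 61.5% and 73.3% after depletion, on 30 to 51 calls. The controls were widely spread at this position, and the 95% Wilson interval of control replicate 1 ran from 5.62% to 23.8%. The same strand was read at 31812053, just outside the island, where mC was 5.05%, 8.97% and 7.95% in controls and 27.4% and 34.8% after depletion. Each depleted library was above each control on this allele, and the means differed by 23.8 points. The other 3 positions of the 5 largest castaneus changes were 31811999, 31811978 and 31811990 of the edge, with differences of 28.7, 25.4 and 24.8 points.

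On the domesticus allele the largest change was at 31811625 in the inner run, with 32%, 30% and 27.9% mC in controls and 65.7% and 50% after depletion. At 31811612 mC was 4.00%, 10.0% and 16.3% in controls and 51.4% and 23.8% after depletion. The next positions by size were 31811990, 31811629 and 31811646, with differences of 24.7, 23.8 and 21.6 points. Neighbouring positions of this run share their reads, so they are not separate observations. Over the 8 positions of the run mC was 18.0%, 23.4% and 23.8% in controls and 48.0% and 29.8% after depletion, and at 3 of the 8 positions depleted replicate 2 lay within or below the controls.

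**Figure D1:**
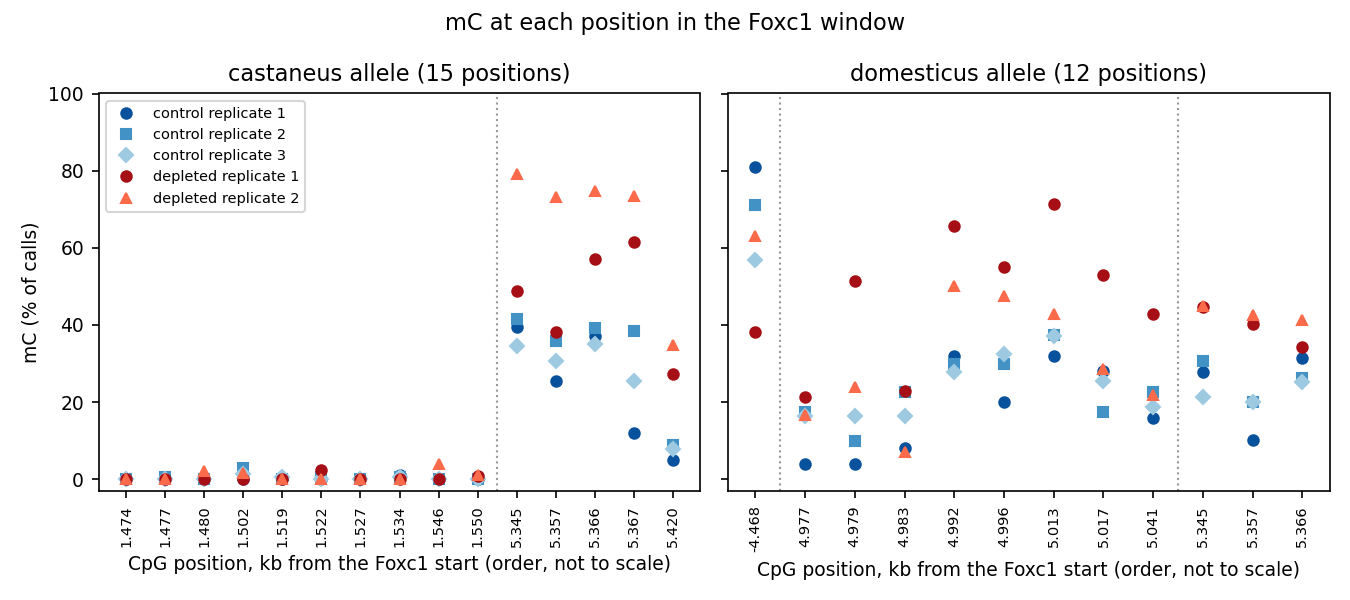
mC in percent of calls (vertical axis) at each Foxc1 position with more than 20 calls in every library, in order along the gene (horizontal axis, kb from the GENCODE start), with 1 symbol per library and a dotted line where positions are over 0.1 kb apart. The coding positions near 1.5 kb stay under 5% in all libraries, and beyond 4.9 kb the depleted libraries (red) lie mostly above the controls (blue).

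Parts of the island and the position just outside it fell under the minimum on 1 allele, and these shallow values did not show the same difference. The inner run on the castaneus allele had no calls in control replicate 1. Summed over all 14 called positions of the interval that the run spans, mC was 51.6% of 95 calls and 46.9% of 32 calls in the other 2 controls. After depletion it was 58.1% of 124 and 45.7% of 210 calls, so the groups overlapped. Reads over the 8 positions of the run itself, 4 to 24 per library, held on average 4.78 and 3.75 methylated CpGs in these controls. After depletion they held 4.73 and 3.58, which also overlapped. At 31812000 on the domesticus allele, 10 to 22 calls gave 61.5%, 83.3% and 100% mC in controls and 75.0% and 95.5% after depletion. The domesticus values at this cytosine were therefore already high in controls, unlike those of the opposite strand of the same CpG, 31811999, which were 31.5%, 26.2% and 25.3% on 65 to 89 calls. At 31812053 on domesticus, 10 to 25 calls gave 46.2%, 41.2% and 70% mC in controls and 31.2% and 28% after depletion. Both depleted libraries were thus below every control there, the opposite of castaneus at the same position. The cause of these differences between strands and alleles was not tested. Of the 101 CpGs of the island, 15 had any call on each allele, and 3 on castaneus and 11 on domesticus passed the minimum.

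Single reads show whether methylation at the edge came as a partial level on every molecule or as a mixture. Reads with none of the 3 CpGs methylated and reads with all 3 methylated were the most frequent kinds, except in domesticus reads of control replicate 1, where reads with 2 methylated CpGs outnumbered those with 3. Unmethylated reads made up 60.5%, 57.3% and 64.4% of castaneus reads in controls and 42.9% and 19.4% after depletion. Fully methylated reads made up 23.3%, 31.5% and 30% in controls and 34.5% and 73.1% after depletion. In depleted replicate 2 this was 49 of 67 reads, with a 95% Wilson interval of 61.5% to 82.3%, and in depleted replicate 1 it was 29 of 84 reads, with an interval of 25.2% to 45.2% that overlaps those of the controls. Such intervals cover counting error only, since copies made by PCR cannot be told from separate molecules.

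On the domesticus allele unmethylated reads of the edge made up 67.4%, 67.7% and 74.7% in controls and 53.7% and 55.2% after depletion. Fully methylated reads made up 10.5%, 18.5% and 18.7% in controls and 28.4% and 39.1% after depletion. Both kinds of read separated the groups on both alleles. The fully methylated share differed by 25.6 points on castaneus and 17.9 on domesticus, close to the differences in mean mC. Castaneus reads of depleted replicate 1 did not show this closeness. There 34.5% were fully methylated against a control mean of 28.2%, while mean mC was 48.0% against 35.5%. In that library 15 of 84 reads had 2 methylated CpGs.

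**Figure D2:**
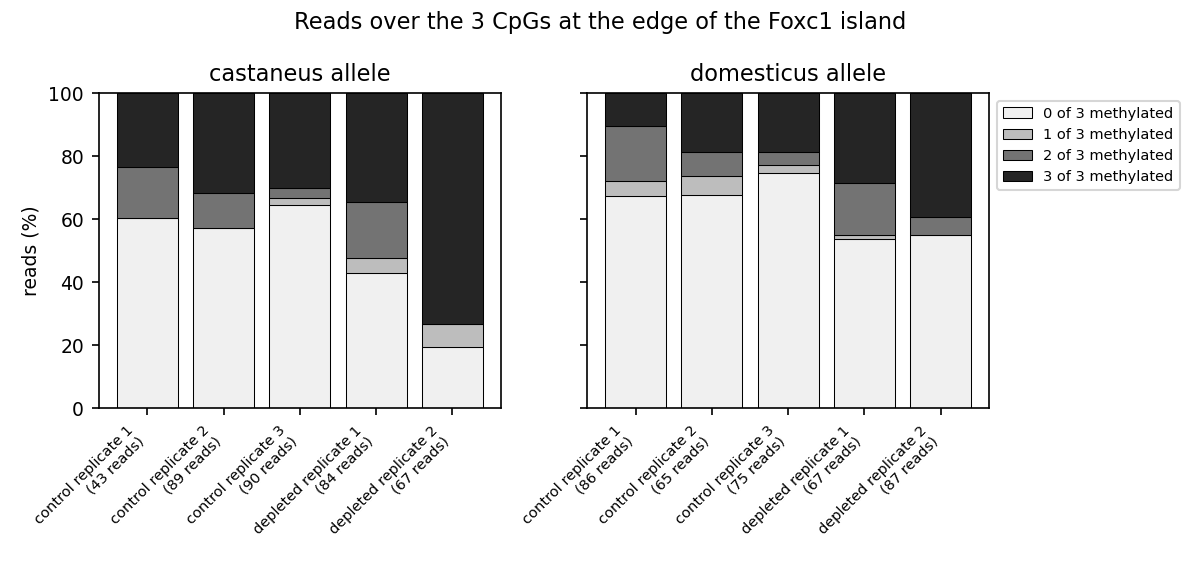
Percent of reads (vertical axis) that had 0, 1, 2 or 3 of the 3 edge CpGs methylated, for each library and allele, with the number of reads under each bar. Unmethylated reads fall from 57.3% or more of castaneus reads in controls to 42.9% and 19.4% after depletion, and fully methylated reads rise.

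Reads of the opposite strand, which cover the last edge CpG and the CpG 53 bp beyond it, had both methylated in 4.00%, 17.9% and 11.8% of castaneus reads in controls and 35.9% and 46.7% after depletion. On domesticus, 10 to 21 such reads per library gave 46.2%, 16.7% and 70% in controls and 33.3% and 19% after depletion, so the groups overlapped and the depleted mean was lower. In the inner run on domesticus, reads with none of the 8 CpGs methylated made up 68.0%, 52.5% and 58.1% in controls and 26.1% and 46.3% after depletion. Reads with at least 4 of the 8 methylated were 20%, 32.5% and 32.6% in controls and 71% and 31.7% after depletion. The last measure overlapped between the groups, because depleted replicate 2 was at the level of the controls.

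The island at the Foxc1 start passed the minimum on the castaneus allele only, at the 10 positions of the coding exon run, and it was nearly unmethylated in all libraries. On domesticus it had 0 to 27 calls per library, none of them methylated. On castaneus mean mC was 0.113%, 0.456% and 0.257% in controls and 0.308% and 0.863% after depletion, and the groups overlapped. None of the 121 to 186 reads per library had 5 or more of the 10 CpGs methylated. With 3 counts taken as the limit for a count of 0, this allows 2.48% at the smallest depth. Upstream of Foxc1, 4.47 kb before the start, 1 domesticus position passed the minimum, with 81.0%, 71.1% and 56.9% mC in controls and 38.2% and 63.0% after depletion. With more than 10 calls as the minimum, 14 positions of this upstream run averaged 66.0% ± 4.40 (SD, n = 3) in controls and 60.2% ± 11.6 (SD, n = 2) after depletion, and the groups overlapped. Of these, 11 were lower in the mean and 3 higher. In both depleted libraries 3 were lower with no overlap and 0 higher. The share over all positions at this minimum is not given, and neighbouring positions share reads, so these counts are not read as a result.

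Over the whole Foxc1 window castaneus controls averaged 9.46% ± 1.64 (SD, n = 3) and depleted libraries 19.3% ± 5.07 (SD, n = 2). On domesticus the averages were 26.2% ± 1.71 (SD, n = 3) and 40.5% ± 6.53 (SD, n = 2). The groups did not overlap on either allele, as for 9.88% of castaneus and 9.98% of domesticus windows of protein-coding genes in this direction. The alleles are not comparable in level here, since different parts of the gene were covered, the unmethylated coding run on castaneus and the inner run on domesticus. With more than 10 calls as the minimum, 25 domesticus positions passed, the difference was 4.36 points and the groups overlapped. The domesticus difference of 14.3 points fell to 6.61 without control replicate 1, when 6 more upstream positions entered, and the castaneus difference of 9.86 points fell to 6.28 without depleted replicate 2.

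Over the window of Foxf2, which acts in palate and gut mesenchyme, the groups overlapped. Over its 15 castaneus positions mC was 1.59%, 1.57% and 4.90% in controls and 4.78% and 2.51% after depletion. Over its 21 domesticus positions it was 0.709%, 2.72% and 2.99% in controls and 1.95% and 1.52% after depletion. The differences were 0.961 points on castaneus and -0.404 on domesticus, and leaving out 1 library moved them and the overlap. Without control replicate 3 castaneus was higher by 2.07 points with no overlap, and without control replicate 1 domesticus changed by -1.12 points with no overlap. With all 5 libraries, 9.88% of castaneus windows were higher and 9.75% of domesticus windows lower with no overlap. The most methylated part was the intron island, where 3 castaneus positions averaged 6.17%, 5.03% and 17.2% in controls and 20.5% and 7.58% after depletion. The 3 domesticus positions of the same island averaged 4.63%, 9.41% and 12.9% in controls and 8.73% and 10.7% after depletion. One control and 1 depleted library were high on castaneus, so the groups overlapped there too. At 31629663 in this island, however, castaneus mC was 3.70%, 1.89% and 3.45% in controls and 24.6% and 6.82% after depletion, a difference of 12.7 points with no overlap. It was 1 of 2 castaneus positions of Foxf2 that were higher in both depleted libraries, of 15, and none was lower, where 4.68% of all castaneus positions were higher and 4.37% lower. On domesticus none of 21 was higher and 1 was lower, where the shares were 4.81% and 4.52%. The castaneus count of 2 of 15 lies above its share, but counts this small are not read as a result. Its start island was at 1.57% or less in every library on both alleles.

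Foxq1, a gene of hair follicle and stomach epithelium, was unmethylated over its island. The 42 castaneus positions of the island averaged 0.640% to 1.42% per library with groups that overlapped. The 31 domesticus positions averaged 0.609%, 0.982% and 0.525% in controls and 0.485% and 0.285% after depletion, lower in both depleted libraries, as were 7.47% of domesticus islands. Over all 44 castaneus positions of the window, mC was 1.89%, 1.52% and 1.48% in controls and 1.31% and 0.759% after depletion. Both depleted libraries were thus below every control, by 0.596 points in the mean, as were 9.64% of castaneus windows. With more than 40 calls as the minimum the castaneus change was -0.295 points and the groups overlapped. Of the 44 positions 2 were higher and 2 lower in both depleted libraries, near the shares of 4.68% and 4.37% of all castaneus positions. Over 33 domesticus positions mC was 3.27%, 2.53% and 1.89% in controls and 3.30% and 1.98% after depletion, and the groups overlapped. When depleted replicate 2 was left out, domesticus was 0.738 points higher and the 1 depleted library that remained was above the controls. Of the 33 domesticus positions none was higher and 1 was lower in both depleted libraries, against 4.81% and 4.52% of all domesticus positions.

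The most methylated part of the Foxq1 window was a run of 2 positions, 31557451 and 31557464, which precede the island and lie inside the GENCODE gene but before the RefSeq start at 31558170. Their mean was 11.8%, 19.7% and 18.2% in castaneus controls and 14.9% and 3.26% after depletion. On domesticus it was 44.6%, 26.5% and 23.1% in controls and 47.0% and 28.2% after depletion. The means of the run overlapped on both alleles. At 31557464 alone, castaneus mC was 7.89%, 23.7% and 6.82% in controls and 4.26% and 0% after depletion, a change of -10.7 points with no overlap and the largest at Foxq1 on this allele. On domesticus the same position was 18.6 points higher in the mean, with overlap.

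**Figure D3:**
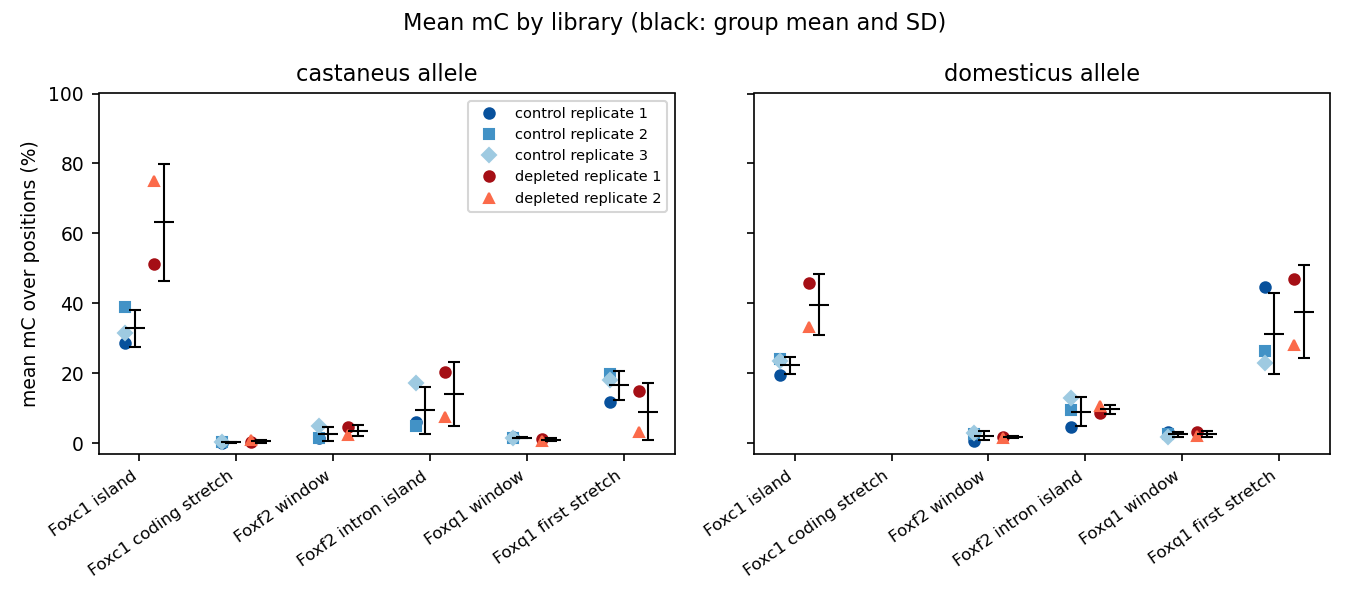
Mean mC in percent over the covered positions (vertical axis) of 6 regions of Foxc1, Foxf2 and Foxq1 (horizontal axis), with 1 symbol per library and the group mean and SD in black; the Foxc1 coding stretch had no domesticus position over the minimum. The groups separate widely at the Foxc1 island, with means of 33.0% and 63.2% on castaneus and 22.3% and 39.6% on domesticus.

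Few positions outside the windows were covered. Within 500 kb of the cluster, 6 castaneus positions averaged 69.2% ± 4.09 (SD, n = 3) in controls and 69.8% ± 5.76 (SD, n = 2) after depletion, and 11 domesticus positions 86.4% ± 2.49 (SD, n = 3) and 87.7% ± 1.42 (SD, n = 2). The nearest position upstream of the Foxc1 window on castaneus, at 31663345, was 143 kb from the gene and had 43.8%, 54.0% and 70.0% mC in controls and 59.4% and 85.5% after depletion. On domesticus the nearest was at 31785194, 21.4 kb upstream, with 3.75%, 21.6% and 33.3% in controls and 14.9% and 26.3% after depletion. The groups overlapped at both. The last covered positions inside the downstream limit were 31812053 on castaneus and 31811999 on domesticus, described above, and the nearest beyond the limit were 989 kb and 71.9 kb from the gene. There castaneus held 0.397% ± 0.687 (SD, n = 3) in controls and 1.88% ± 2.65 (SD, n = 2) after depletion, and domesticus 96.1% ± 4.97 (SD, n = 3) and 95.6% ± 1.65 (SD, n = 2).

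At the limits of the Foxf2 window the nearest positions inside were 31625300 upstream on both alleles and, downstream, 31632644 on castaneus and 31632645 on domesticus, with control means of 3.93%, 3.09%, 3.51% and 1.63% in that order of position and allele. The nearest position outside it was 31620079 on castaneus, 5.74 kb upstream, with 0.439% ± 0.760 (SD, n = 3) in controls and no methylated call after depletion. The nearest outside the upstream limit of Foxq1, at 31363720, was 192 kb away, with 93.5% and 92.7% in castaneus and domesticus controls and 94.5% and 96.6% after depletion. The groups overlapped at each of these nearest covered positions outside the windows, most of which were far from the genes, so the immediate surroundings were mostly not covered.

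Among all autosomal islands with at least 3 covered positions, the median change was -0.00718 points on castaneus and -0.00962 on domesticus, and 90.6% of islands on either allele were under 5% mC in controls. The change of the Foxc1 island ranked 1 of 6279 islands on castaneus and 4 of 5931 on domesticus, which is given as a description of how the gene was picked. Islands with 10 to 40% mC in controls numbered 183 and 164, and their median change was -2.51 and -2.17 points. Of these, 6.01% on castaneus and 8.54% on domesticus had both depleted libraries above all controls.

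**Figure D4:**
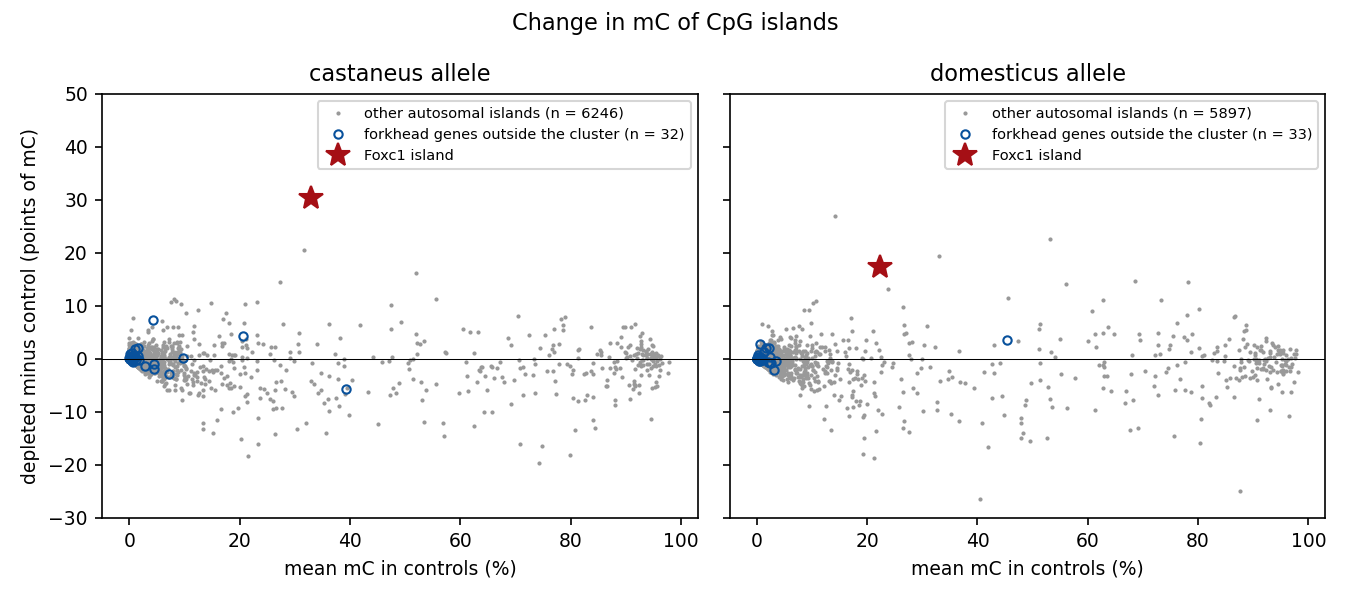
Change in mC after depletion in points (vertical axis) against mean mC in controls in percent (horizontal axis), 1 point per autosomal island with at least 3 covered positions, with islands of other forkhead genes as open circles and the Foxc1 island as a star. The Foxc1 island lies 30.3 points above no change on castaneus and 17.3 on domesticus, while the forkhead islands run from -5.67 to 7.26 and from -2.10 to 3.44 points.

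Forkhead genes outside the cluster were the comparison that the choice of Foxc1, Foxf2 and Foxq1 had not used. The list held 38 genes, of which 29 had 37 islands to test on castaneus and 30 had 36 on domesticus, with calls summed over an island. By a quasi-binomial model moderated with limma, no island passed an adjusted p of 0.05 on either allele, against 3 of 7426 (0.0404%) and 2 of 7097 (0.0282%) of all autosomal islands. Without adjustment 1 forkhead island on each allele had p under 0.05 by this model, against 2.46% of all castaneus and 2.28% of all domesticus islands, and limma on log ratios called none after adjustment. Without adjustment limma had 1 and 3 forkhead islands under 0.05, against 5.29% and 5.69% of all islands. The 1 on castaneus was at Foxd3, a gene of the neural crest, which went from 1.43% ± 0.546 (SD, n = 3) to 3.48% ± 1.72 (SD, n = 2). On domesticus this island went from 2.53% to 2.86% with overlap, and another Foxd3 island overlapped on both alleles. The 1 on domesticus was at Foxi2, from 1.38% ± 1.04 (SD, n = 3) to 4.61% ± 1.57 (SD, n = 2), where castaneus moved the other way, by -4.25 points in the mean. The largest change of the list was on castaneus at a Foxe1 island (chr4:46339720-46339956). It went from 4.27% ± 1.10 (SD, n = 3) to 11.4% ± 4.36 (SD, n = 2) with no overlap. Its unadjusted p was 0.0886 by the quasi-binomial model with limma. Foxd3, Foxi2 and Foxe1 were named after their values were seen. On castaneus 5 of 37 forkhead islands were higher and 2 lower in both depleted libraries, and on domesticus 3 of 36 were higher and 2 lower. Among all islands described by means over positions, 7.29% and 7.52% were higher and lower on castaneus. On domesticus these shares were 6.58% and 7.47%. Counts this small are not read as a result. The median change over the list was 0.00784 points on castaneus and 0 on domesticus, against 0 and -0.00176 over all islands tested. Most islands of the list were under 5% mC in controls, unlike the Foxc1 island, so they had little methylation to lose. An island of Foxp2 at chr6:14898223-14898502 was partly methylated in controls. Its mean went from 22.8% to 26.0% on castaneus and from 31.2% to 34.4% on domesticus, and the groups overlapped on both.

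Foxf1, Foxc2 and Foxl1 form the paralogous cluster on chromosome 8. The Foxc2 island, at the closest relative of Foxc1, had 0.446% ± 0.582 (SD, n = 3) mC in castaneus controls and no methylated call after depletion, and 0.508% ± 0.518 (SD, n = 3) and 0.770% ± 0.0973 (SD, n = 2) on domesticus. An island before Foxf1, a gene of lung and gut mesenchyme, went from 0.967% ± 0.879 (SD, n = 3) to 2.85% ± 2.02 (SD, n = 2) on castaneus, and the groups overlapped. Foxl1, a gene of gut mesenchyme, has an island at chr8:121127840-121129274 over its start with partial methylation in controls, as the Foxc1 island had. On castaneus this island had 37.3%, 30% and 37% mC in controls and 31% and 31% after depletion. On domesticus it had 44.9%, 39.2% and 49.6% in controls and 45.5% and 45.3% after depletion. Neither difference, -3.83 and 0.786 points, passed the test (adjusted p = 1 by the quasi-binomial model with limma on both alleles).

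Genes beside the cluster gave no further value. The list held A530084C06Rik, which runs against Foxq1 and shares its island, and Gmds, which had no island with enough calls.

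Whether the castaneus and domesticus alleles differed before depletion was tested in the 3 controls, a contrast that the choice of genes had not used. At the Foxc1 island, with calls summed over positions that had any call on both alleles in every control, castaneus had 27.9%, 38.9% and 32.2% mC and domesticus 24.9%, 29.0% and 25.5%. These were positions of the edge only. Castaneus was higher in 3 of 3 libraries, by 6.53 points in the mean, which did not pass the test (adjusted p = 0.935 by the quasi-binomial model with limma, and 0.345 to 1 over the alternatives). Without control replicate 1 castaneus was 13.1 points higher, but the inner run, which had no castaneus calls in that library, then entered the sum. The positions compared were thus not the same. The domesticus sum includes 31812000, with its high values on few calls. The 3 edge positions were each higher on castaneus in 3 of 3 libraries, by 11.8, 14.1 and 9.58 points, with adjusted p of 0.877, 0.788 and 0.929 by the same model. None of the 37 cluster positions and none of the 3 islands read on both alleles passed, against 0.0316% of all autosomal positions and 0.442% of all islands. Before adjustment 3 positions and no island had p under 0.05 by this model, against 5.90% of all positions and 5.71% of all islands. Limma called none after adjustment, with 2 positions and no island before it, against 8.31% and 7.81%. These p-values set the allele difference against its variation between libraries, after library levels are removed. That variation was moderated across features and not taken below counting error, so a steady difference on few calls need not pass. No label states that the libraries came from separate embryos, so the variation may be technical.

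The 5 islands closest to the Foxc1 island over its 10 values were found by the root mean square difference among 4838 islands covered on both alleles. In order they were in Plcd3, in Gm28308 and Hoxaas2, in Antxr2, 29558 bp from Zfp988 and in Dusp8, with differences of 14.7, 15.9, 16.1, 17 and 17.2 points. These differences are large beside the SD of the controls, so none is a close match. The 10 values include those of the depleted libraries, so the choice favoured islands that gained, and nothing is read from their direction. Among all islands 7.29% of castaneus and 6.58% of domesticus ones were higher with no overlap, and 7.52% and 7.47% were lower. Of the 5 islands, Antxr2, an anthrax toxin receptor gene, had both depleted libraries above all controls on both alleles, with 21.0%, 21.3% and 27.2% in castaneus controls against 36.2% and 31.4%. In Gm28308 and Hoxaas2 mC was 20.6 points higher on castaneus with no overlap and 19.3 points higher on domesticus with overlap. In Plcd3 castaneus changed by -6.86 points with overlap and domesticus by 9.79 with none. Near Zfp988 castaneus changed by -5.86 points with overlap and domesticus by -4.21 with none. In Dusp8 castaneus changed by 6.92 points with no overlap and domesticus by 2.64 with overlap.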

How the data were processed

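The deposited files list 1 methylation call per CpG and read, methylated or not, with no score or count, for 5 libraries and 2 alleles. The authors trimmed reads with Trim Galore, mapped them with Bismark to an N-masked mm10 genome, split them by strain with SNPsplit and called cytosines with Bismark's extractor, which the file headers give as version 0.13.0. The submitters' processing notes also name CASAVA 1.4.

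Calls were summed per position, library and allele, and positions with more than 20 calls in every library were described, as in the study. The island tests summed positions with any call in every library used, and the sum had to exceed 20 calls in each. More islands were therefore tested than described. Strain identity was checked at the imprinted Zrsr1 island, with 93.1 to 97.4% mC on domesticus and 0.785 to 4.65% on castaneus. Positions fell on reference CpGs in 98.8 to 98.9% of cases. Islands were computed on repeat-masked GRCm38 (at least 200 bp, GC share 0.5, observed to expected CpG ratio 0.6), and genes are from GENCODE M21. mC of a region is the mean over its positions. Runs, positions of 1 strand at most 60 bp apart, and the sequences shown were chosen after seeing the data. The study's t-test was not used here.

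Islands outside the cluster and the alleles in controls were tested with a quasi-binomial logistic model of the calls. The allele model had library as a term. The dispersion was squeezed across features (limma 3.58.1 in R 4.3.3) and not taken below binomial counting error. Benjamini-Hochberg adjustment ran over all autosomal features, and the model was tested on simulated data. The members, lists and rules (named genes: all members and islands, the largest 5 changes per allele, the window limits, the paralogous cluster, the 5 most similar islands) were chosen with earlier results of these data known. Alternatives were the minimum of calls, pooled calls, filtered reads, the window, the model, island rules and each library left out. Replicate numbers were not used to pair libraries. The X chromosome and RNA were not analysed here.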

Additional observations from a re-analysis of the deposited data

How the results depend on the processing

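The Foxc1 island kept its direction under each alternative that gave a value, and with the call minimum, pooled calls, marked reads or a library left out each depleted library that remained was above all controls that remained. Leaving out 1 library in turn moved the castaneus difference between 18.4 and 42.1 points and the domesticus one between 11.1 and 23.5. With the replicate number as a replicate block the differences were 29.5 and 17.8 points. This block uses same-numbered libraries only, so it gives the same values as leaving out control replicate 3 and is not a separate alternative. No label says what the 2 shared numbers mark. The correlation of same-numbered deviations over islands was -0.0251 and 0.198 on castaneus and -0.0935 and 0.0271 on domesticus. With 2 depleted libraries these correlations cannot settle whether the libraries pair. The Foxc1 window ranged from 6.28 to 13.4 points on castaneus and from 6.61 to 18.9 on domesticus with 1 library left out. With calls pooled over positions the castaneus window differed by 4.91 points, since the deeply read coding run then weighs more. With over 10 calls the domesticus window differed by 4.36 points and the groups overlapped, as 13 upstream positions enter. With over 40 calls the castaneus difference of Foxq1 was -0.295 points and overlapped. With 1 library left out, the overlapping differences changed sign within -0.172 to 2.09 (Foxf2 castaneus), -1.12 to 0.0228 (Foxf2 domesticus) and -0.589 to 0.738 points (Foxq1 domesticus), and each lost its overlap in 1 case (without control replicate 3, control replicate 1 and depleted replicate 2, in that order). The forkhead list and the allele test kept their counts of 0 throughout. Over all autosomal islands limma called 0 on either allele, the replicate block called 21 on domesticus, and 0 to 7 were called there with 1 library left out (7 without control replicate 1, 4 without control replicate 3, 0 without either depleted replicate); the cause was not tested. Counting identical reads once gave no value, because the reads of an edge library held 4 or 5 patterns, too few to pass the minimum. Calls per position and library at Foxc1 were 30 to 199 on castaneus and 21 to 89 on domesticus, which sets the precision, and 2 depleted libraries leave the size of each difference uncertain.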
